A study of Mus musculus with 12 samples.

Results

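B140H and B117H are mouse acute myeloid leukaemia cell lines that tolerate high doses of cytarabine (Ara-C), and the comparison between them asks how the transcripts of the 2 resistant end states differ. The members are the arrays whose titles name these lines, 3 for B140H and 3 for B117H, which are 6 of the 12 arrays of the series. B140H was derived from the Ara-C-sensitive line B140P, and B117H from the Ara-C-sensitive line B117P. All 4 lines come from BXH-2 mice, which are inbred and carry a retrovirus whose insertions cause myeloid leukaemia. The other 6 arrays, 3 of B140P and 3 of B117P, served to show which differences between the resistant lines were already present between their parents. The same growth and treatment text, rising Ara-C exposure and passage without the drug, is attached to all 12 samples, so it does not set resistant cells apart from parental ones. Each end state is 1 line, so what belongs to a lineage, to a clone and to the resistance itself cannot be told apart. Arrays of a line carry the letters A, B and C, and the labels do not say whether these are separate cultures. The p-values below therefore cover only the variation among these arrays, which may be technical.

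Ara-C is a cytidine analogue that blocks DNA synthesis once it has been built into DNA as a triphosphate. It enters through nucleoside transporters, and deoxycytidine kinase, encoded by Dck, adds the first phosphate, after which other kinases complete the triphosphate. Cytidine deaminase, nucleotidases and the triphosphohydrolase Samhd1 work against this route. Myeloid leukaemia cells are blocked at some stage between progenitor and mature granulocyte or monocyte, and that stage is read from granule enzymes, growth factor receptors and lineage transcription factors.

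All values are RMA intensities of probe sets on a linear scale, and differences are log2(intensity + 1) of B140H minus B117H unless another pair is named. A gene was called at a Benjamini-Hochberg adjusted p under 0.05 in limma, fitted over all 12 arrays, and the SE of the log2 difference ran from 0.08 to 0.47 over the genes the naming rule picked, with a median of 0.15. Array medians ran from 118 to 132 units, and array B of B140H stood apart with the highest median, 132, and a lower quartile of 58.6 units against 50.8 to 53.7 on the other 11 arrays. The median log2 difference over all genes was 0.07 with this array and -0.00067 without it. No detection calls came with the values. The lowest intensity on any array was 7.65 units, so a line close to it has little room to be lower and the size of its gap is not exact.

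The leukocyte label fitted both lines. Ptprc, which encodes the pan-leukocyte antigen CD45, stood at 8280, 8410 and 10036 units in B140H and at 12673, 13144 and 15122 units in B117H. Spi1, the myeloid master regulator PU.1, gave 2778, 2622 and 2609 units in B140H and 2642, 2343 and 2056 units in B117H, and it was not called (log2 difference 0.19). Col1a1, a fibroblast collagen, was at 74.9 to 87.2 units in B140H and at 79.2 to 81.4 units in B117H, below the array medians. Over the 15 measured stromal and endothelial markers the summed intensity ran from 1609 to 2109 units in B140H and from 2062 to 2444 units in B117H, and 2 markers, Fn1 and Pdgfrb, were called lower. The 21 T and NK cell markers summed to 6225 to 7512 units in B140H and to 7619 to 9488 units in B117H. Fn1, fibronectin, differed by -1.70 and Nkg7, a granule membrane protein of cytotoxic cells, by -4.42, and the part that other cells could have in these values was not tested. In bulk RNA, fewer cells of a type and less RNA per cell cannot be told apart.

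Of 18193 measured genes, 4911 (27.0%) were called between the resistant lines, 2426 (13.3%) higher and 2485 (13.7%) lower in B140H. With all arrays as deposited, smaller differences leaned to the higher side and larger ones to the lower side. Under 2-fold, 1910 called genes were higher and 1650 lower, at least 2-fold differences counted 516 higher and 835 lower genes, at least 4-fold 125 and 327, and at least 8-fold 62 and 143. Over all sizes, 2242 genes were called higher and 2379 lower without array B of B140H. With each array centred on its median the counts were 2216 higher and 2602 lower. The split by size was not repeated in these settings. The 3 B140H arrays lay wholly on one side of the 3 B117H arrays for 7075 genes (38.9% of all genes), among them 4868 of the 4911 called ones. The median absolute log2 difference over all genes was 0.18 between the resistant lines and 0.14 between B140P and B117P.

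The parental lines were themselves apart, with 4333 genes (23.8%) called between B140P and B117P. Of the 4911 genes called between the resistant lines, 2640 (53.8%) were called with the same sign between the parents, and these made up 60.9% of the parental calls. Another 168 (3.42%) were called with the opposite sign, and 2103 (42.8%) were not called between the parents. Whether a gap itself differed was tested as a difference of differences, B140H minus B117H less B140P minus B117P, which was called for 1896 genes (10.4%). By that test the gap was wider at the resistant end for 271 of the same-sign genes and narrower for 194, and it was not called for 2175. Of the 2103 genes without a parental call, 682 passed it. Among those 682, the line that had moved from its own parent by a called amount was B117H alone for 332, B140H alone for 173, both for 63 and neither for 114. The difference of differences uses the same arrays as the gap between the resistant lines, so the 2 are not independent of each other.

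**Figure D1:**
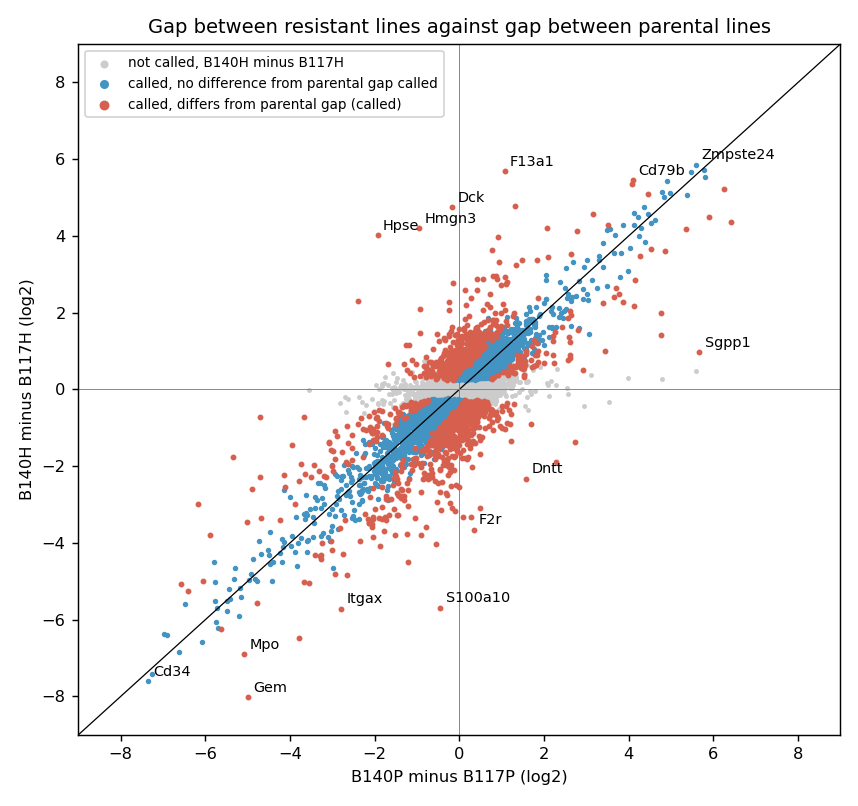
Each point is 1 of 18193 genes, with the log2 difference of B140H minus B117H on the vertical axis and of B140P minus B117P on the horizontal axis; the diagonal marks equal gaps, blue points were called with no called difference from the parental gap, red points were called with one, and grey points were not called. Cd34 and Zmpste24 lie on the diagonal, while Dck, Hpse and Hmgn3 lie high above the parental zero line and S100a10 and F2r far below it.

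The 15 genes with the largest difference in favour of B140H held enzymes, phagocyte genes and genes best known from B cells, neurons and muscle. Zmpste24, the protease that matures lamin A, stood at 2492, 3227 and 3118 units in B140H and at 48.4, 61.3 and 41.3 units in B117H, a log2 difference of 5.85 (SE 0.16, adjusted p = 3.19e-11). Hadh, a mitochondrial enzyme of fatty acid oxidation, stood at 2792, 3093 and 3124 units in B140H and at 73.9, 47.8 and 54.6 units in B117H, a difference of 5.67. Slc11a1, the metal transporter of phagosomes also known as Nramp1, gave 5092, 5605 and 6027 units in B140H and 142, 98.4 and 148 units in B117H, a difference of 5.44. In each of these genes all B140H arrays lay above all B117H arrays, which was a condition of the choice. The parental lines were apart as well, by 5.59 for Zmpste24, 5.47 for Hadh and 4.91 for Slc11a1 in B140P minus B117P.

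F13a1, the A subunit of coagulation factor XIII made by monocytes and macrophages, had the third largest difference and a different history. It stood at 7806, 4230 and 3274 units in B140H and at 87.2, 84.2 and 106 units in B117H, a difference of 5.68 (adjusted p = 5.04e-08). B140P had 1249, 987 and 1285 units, and B117P had 309, 768 and 722 units. B140H was thus above and B117H below all 6 parental arrays, and the gap between the resistant lines exceeded the parental one by 4.61 (adjusted p = 7.85e-05).

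The others of the 15 included Cd79b, a signalling chain of the B cell receptor, at 5.45, Rgs7bp, a membrane anchor of RGS proteins, at 5.36, and Pou4f1, a POU transcription factor of sensory neurons, at 5.22. Nefh, the heavy neurofilament, differed by 5.12, Ak3, a mitochondrial adenylate kinase, by 5.06 and Klhl41, a kelch protein of muscle, by 5.02. Lipo3, a lipase of a family of close copies whose probes may not separate the members, differed by 5.71, Popdc3 by 5.54, Dmrtb1, a DM-domain factor of the testis, by 5.15 and Zfp518b, a zinc finger protein, by 5.09. Uty, a demethylase-like gene on chromosome Y, closed the list. It read 440, 301 and 537 units in B140H and 14.2, 13.5 and 14.5 units in B117H, a difference of 4.78. In the parents it read 550, 445 and 599 units in B140P and 189, 228 and 222 units in B117P, so B117H alone was near the lowest intensities. All 4 Uty probe sets were called higher in B140H. Of the 8 measured genes of the Y and Xist list Uty was the 1 called. Eif2s3y, a Y-linked translation factor gene, read 14.5 to 20.1 units in B140H and 14.9 to 15.8 units in B117H.

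The 15 genes with the largest difference in favour of B117H included progenitor, granule and macrophage genes. Gem, a small GTPase that restrains calcium channels and cytoskeletal signalling, was at 32.2, 22.3 and 23.9 units in B140H and at 6446, 6113 and 8490 units in B117H. This was the largest gap in either direction, a log2 difference of -8.02 (SE 0.19, adjusted p = 1.50e-11) or 259-fold on this scale. Cd34, the sialomucin that marks haematopoietic stem and progenitor cells, was at 26.2, 43.1 and 42.5 units in B140H and at 6882, 7159 and 7745 units in B117H, a difference of -7.60 (adjusted p = 3.64e-11). Mpo, the myeloperoxidase of primary granules, was at 260, 121 and 86.1 units in B140H and at 15911, 17058 and 17502 units in B117H, a difference of -6.90 (adjusted p = 1.60e-09). No array of one line came near an array of the other in these genes.

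Cd34 had a gap of -7.35 in the parents, with 39.3, 49.4 and 33.1 units in B140P and 8469, 5360 and 6651 units in B117P. Gem and Mpo were also lower in B140P than in B117P, but by less. Gem read 137, 239 and 188 units in B140P and 5968, 5955 and 5667 units in B117P, and the gap between the resistant lines differed from this by -3.02. Il18r1, a chain of the interleukin-18 receptor, read 55.1, 63.0 and 67.8 units in B140H and 5089, 5767 and 5807 units in B117H, a difference of -6.46. In the parents it read 69.9, 86.8 and 89.3 units in B140P and 985, 1371 and 1110 units in B117P, so B117H was above its own parent on every array. Itgax, the integrin CD11c of dendritic cells and macrophages, had the same shape: 109, 125 and 110 units in B140H, 5308, 6097 and 6825 units in B117H, 116, 97.9 and 124 units in B140P and 672, 810 and 862 units in B117P.

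The remaining genes of the 15 were Ptgr1, a prostaglandin reductase, at -7.42, Pxylp1, a xylose phosphatase of proteoglycan synthesis, at -6.85, and Ell2, an RNA polymerase elongation factor, at -6.59. Lgals3, the macrophage lectin galectin-3, differed by -6.40, App, the amyloid precursor protein, by -6.36, Fgf13, an intracellular fibroblast growth factor homologue, by -6.25 and Sri, the calcium-binding protein sorcin, by -6.22. Bhlhb9 differed by -6.06, Erg, the ETS factor of stem cells and megakaryocytes, by -5.92 and Ctsh, the lysosomal protease cathepsin H, by -5.76. Of these 30 leading genes 17 had 1 probe set. Of the other 13, 10 had all their further probe sets called in the same direction, and Pxylp1, Ell2 and App had at least 1 that was not called.

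**Figure D2:**
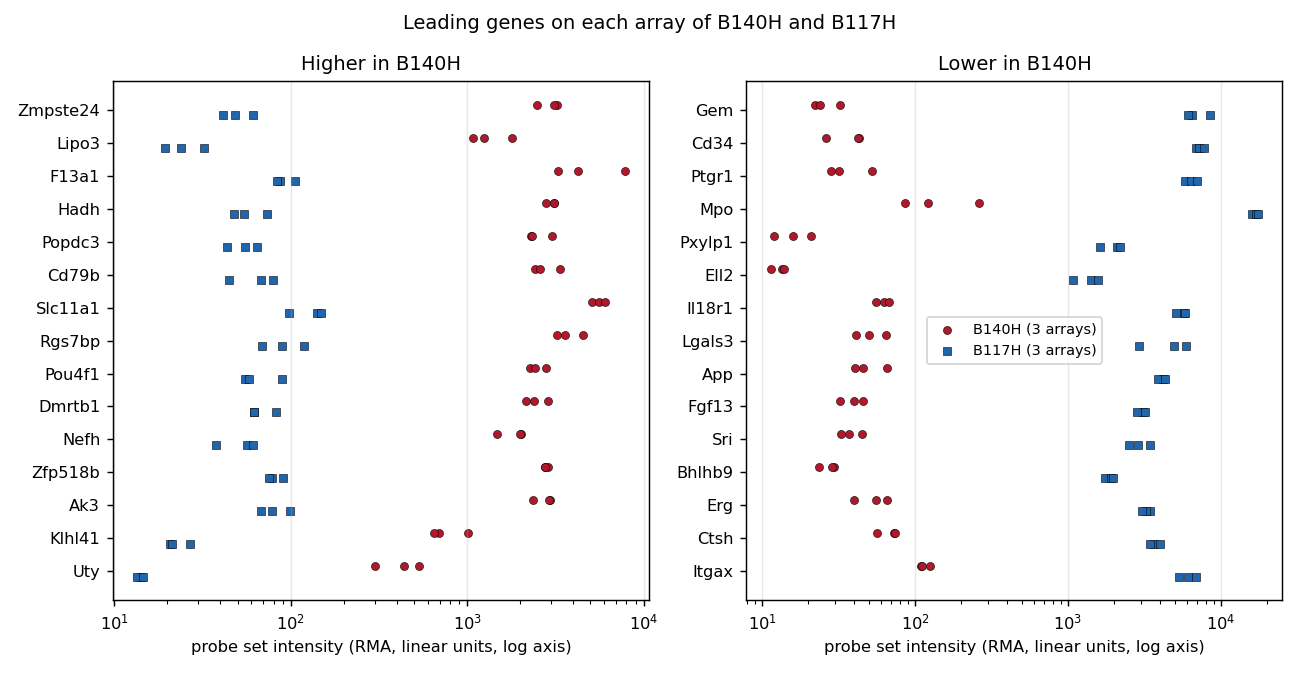
The 15 genes with the largest difference in each direction are shown on each array, with B140H as red circles and B117H as blue squares on a log axis of RMA intensity. The lines do not overlap in any of the 30 genes because only genes without overlap were eligible. Gem in the lower group shows the widest gap, 22.3 to 32.2 units in B140H and 6113 to 8490 units in B117H.

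Dck was lower than in the parents in both resistant lines, but the end points were far apart. It stood at 305, 281 and 309 units in B140H and at 9.39, 11.2 and 9.91 units in B117H, which is close to the lowest intensity on any array. The difference was 4.75 (SE 0.12, adjusted p = 2.07e-11) or 26.9-fold on the log2(intensity + 1) scale, a size that is not exact since B117H lay so low. The parents gave 2337, 2481 and 2576 units in B140P and 2287, 3158 and 2935 units in B117P, overlapping ranges with a difference of -0.17 that was not called (adjusted p = 0.477). From parent to resistant line, Dck differed by -3.04 in B140H minus B140P and by -7.96 in B117H minus B117P, and the gaps of the resistant and the parental pair differed by 4.92 (adjusted p = 2.56e-08).

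The 3 Dck probe sets did not agree in direction. The brightest gave the values above. A second one read 146, 137 and 141 units in B140H and 15.4, 14.4 and 11.8 units in B117H, a difference of 3.27 (adjusted p = 6.13e-09). The third ran the other way, with 61.9, 101 and 74.0 units in B140H and 259, 217 and 198 units in B117H, a difference of -1.52 (adjusted p = 2.32e-05). On that probe set B117H lay near its parent (mean 225 units in B117H, 246 units in B117P) and B140H below its parent (mean 78.9 units in B140H, 207 units in B140P). Which part of the transcript each probe set reads was not tested.

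The rest of the Ara-C uptake and activation list showed smaller gaps. Of 13 measured genes 4 were called higher and 2 lower in B140H (46.2% called, against 27.0% of all genes). Their median difference of 0.14 was 0.07 without array B of B140H. Tk1, the cytosolic thymidine kinase of dividing cells, read 3374, 3978 and 3097 units in B140H and 1346, 1538 and 1420 units in B117H, a difference of 1.27 (adjusted p = 3.16e-06). The equilibrative nucleoside transporter gene Slc29a2 differed by 0.74 and the nucleoside diphosphate kinase gene Nme1 by 0.34. Lower were Cmpk2, the mitochondrial UMP-CMP kinase, at -2.18 and Nme4, a mitochondrial nucleoside diphosphate kinase, at -1.41. Slc29a1, the main carrier of Ara-C into cells, read 1896, 1728 and 1393 units in B140H and 1280, 1201 and 983 units in B117H. Its difference of 0.53 was not called (adjusted p = 0.0777), and it was called once the letters A to C were fitted as a block (adjusted p = 0.0094). Cmpk1, Nme2, Dguok, Tk2, Slc28a3 and Slc29a3 lay between -0.13 and 0.19 and were not called. A second probe set of Cmpk1 was called, with the opposite sign to the one used. The second probe set of Cmpk2 was not called.

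In the list of Ara-C inactivation and efflux, 4 of 15 measured genes were called higher and 5 lower, with a median of 0.09. Lower in B140H were the drug exporter gene Abcc4, at 1009, 1047 and 1040 units in B140H and 2908, 3200 and 2914 units in B117H (-1.54, adjusted p = 1.27e-07), and the nucleotidase genes Nt5c3b (-1.39), Nt5c2 (-0.86) and Nt5e (-0.59), with the exporter gene Abcb1b at -0.70. The other 3 of the 4 Nt5c2 probe sets were not called, and neither was the second one of Abcb1b (0.12). Nt5c3b and Nt5e each had 1 of 3 probe sets that was not called. Higher were Abcc10 (0.55), the deaminase gene Dctd (0.51), the nucleotidase gene Nt5c (0.37) and Samhd1 (0.26), the last of which was -0.0293 and not called when its probe sets were averaged. The other 4 of the 5 Samhd1 probe sets were not called. Cda, cytidine deaminase, read 92.4, 107 and 68.2 units in B140H and 85.5, 69.2 and 78.2 units in B117H, overlapping and not called. Abcg2 (0.20), Nt5c3 (0.24), Nt5m (0.09), Abcc5 (-0.07) and Abcb1a (-0.16) were not called. A dimmer second probe set of Abcb1a was called lower (-0.54), and 1 of the 10 of Abcc5 was called higher (0.48). The lower count was 3 without array C of B117H and 3 without array A of B140H, and the higher count was 2 without all B arrays and 0 without all C arrays (limma). The median was 0.03 without array B of B140H and 0.02 without array C of B117H. The same list had 4 higher and 4 lower calls in B140P minus B117P.

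Nucleotide synthesis genes were called higher for 6 of 25 members and lower for 1, with a median of 0.13, and this share of 28.0% called was close to the 27.0% of all genes. Impdh1, an enzyme of guanine nucleotide synthesis, differed by 0.75, Gart, of purine synthesis, by 0.62, Ctps2, a CTP synthase, by 0.59 and Umps, of pyrimidine synthesis, by 0.48. The other 2 of the 3 Ctps2 probe sets were not called, nor were 2 of the 4 of Gart and 1 of the 4 of Umps. The count of higher members was 3 without array B of B140H and 3 without array C of B117H.

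Beyond Dck, the genes whose gap between the resistant lines departed most from the parental gap included several that changed sides. Hpse, the heparanase that cleaves heparan sulphate, stood at 1749, 1131 and 1429 units in B140H and at 78.4, 93.8 and 87.8 units in B117H, against 249, 250 and 283 units in B140P and 795, 1100 and 1137 units in B117P. B140H was the highest of the 4 lines and B117H the lowest, the parental order was reversed, and the gaps of 4.02 and -1.93 differed by 5.95 (adjusted p = 3.28e-08). Hp, the haem-scavenging protein haptoglobin of neutrophil granules, read 2256, 2063 and 1549 units in B140H and 402, 362 and 404 units in B117H, but 208, 223 and 247 units in B140P and 992, 1151 and 1473 units in B117P. Its gap was 2.31 between the resistant lines and -2.39 between the parents. Hmgn3, a nucleosome-binding protein, read 3454, 3094 and 3228 units in B140H and 228, 148 and 160 units in B117H, with 344, 572 and 674 units in B140P and 1064, 905 and 988 units in B117P, and both of its probe sets were called higher.

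In the other direction, S100a10, the annexin A2 partner p11, stood at 64.1, 76.4 and 99.0 units in B140H and at 4134, 4082 and 4078 units in B117H. Its parents were close, at 4141, 3262 and 3249 units in B140P and 4425, 4691 and 5438 units in B117P (-0.45), so B140H alone was low. The gap of -5.69 differed from the parental one by -5.23 (adjusted p = 3.28e-08). Dntt, the terminal transferase of lymphoid progenitors, read 1885, 1423 and 1811 units in B140H and 5988, 9850 and 10462 units in B117H, but 5782, 6897 and 6445 units in B140P and 1088, 3437 and 2568 units in B117P. Vpreb1, a surrogate light chain of precursor B cells, turned in the same way, with a gap of -1.89 between the resistant lines and 2.28 between the parents. F2r, the thrombin receptor, read 69.7, 60.9 and 53.5 units in B140H and 762, 791 and 788 units in B117H, while B140P had 181, 129 and 254 units and B117P 107, 153 and 179 units. Crem, a cyclic AMP-responsive transcription factor, differed by -3.09 between the resistant lines and by 0.48 between the parents.

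For other genes the resistant lines had moved closer together than their parents. Sgpp1, a sphingosine phosphate phosphatase, read 1101, 1067 and 1911 units in B140H and 563, 670 and 780 units in B117H, a gap of 0.98, whereas B140P had 2152, 2270 and 2306 units and B117P 42.1, 43.7 and 44.0 units, a gap of 5.66. Igsf6, an immunoglobulin superfamily receptor of myeloid cells, read 42.6, 38.2 and 24.3 units in B140H and 51.8, 58.0 and 60.2 units in B117H, and its parental gap was -4.71. Hpgd, the enzyme that inactivates prostaglandins, differed by -1.77 between the resistant lines and by -5.36 between the parents.

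**Figure D3:**
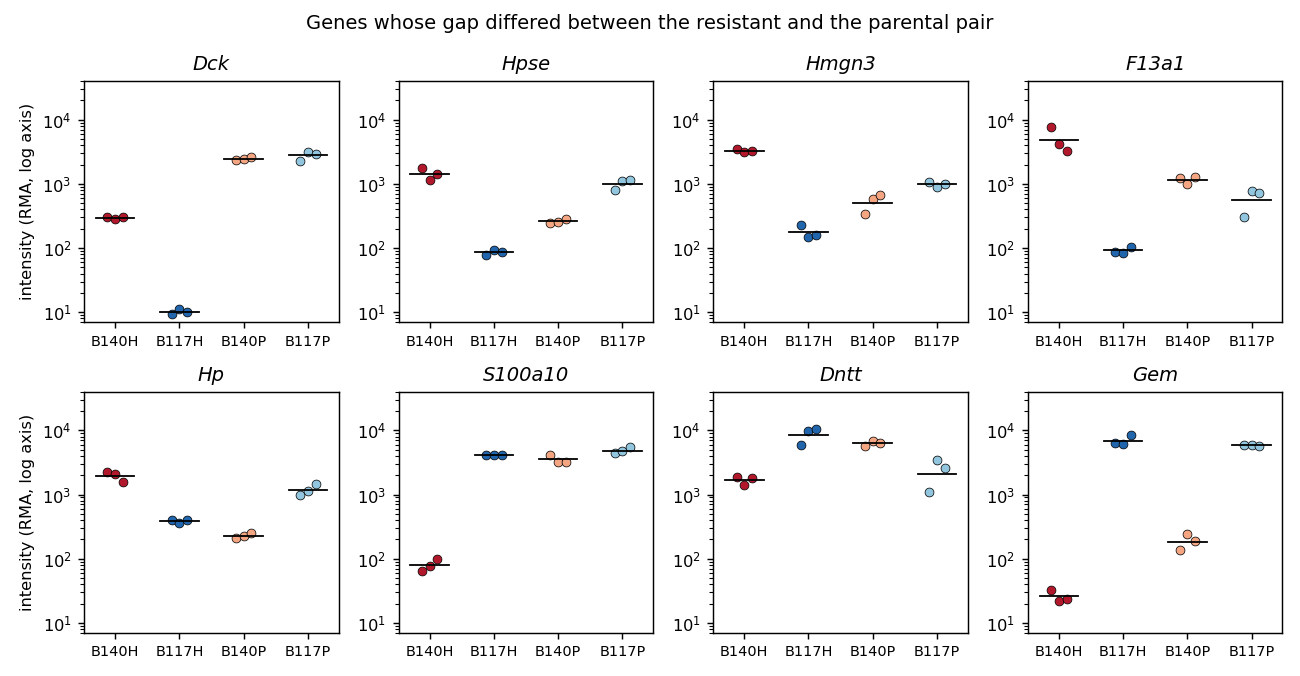
Intensity on a log axis is shown for 8 genes on each array of B140H, B117H, B140P and B117P, with a line at the geometric mean of each group of 3. Dck is lowest in B117H, S100a10 and Gem are lowest in B140H, and for Hpse, Hp, Hmgn3 and Dntt the order of B140H and B117H is the reverse of that of B140P and B117P.

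Most primary granule genes were lower in B140H. Of 10 measured members 7 were called lower and 0 higher in limma (1 higher at an unadjusted p under 0.05), with a median of -0.82. This was 70.0% called, against 27.0% of all genes. After Mpo, Ms4a3, a cell cycle regulator of granulocyte and monocyte progenitors, read 86.3, 130 and 130 units in B140H and 988, 919 and 816 units in B117H, a difference of -2.98 (adjusted p = 1.43e-08). Elane, neutrophil elastase, differed by -1.95, Cst7, the cysteine protease inhibitor cystatin F, by -1.93, Prtn3, proteinase 3, by -0.90 and Serpinb1a, an inhibitor of these proteases, by -0.74. The summed intensity of the list ran from 51324 to 52469 units in B140H and from 80757 to 81159 units in B117H. The parental gap was wider for Ms4a3 (-6.17) and Elane (-3.74), and for these the difference of differences was 3.18 and 1.79. Late granule and neutrophil genes were rarely called (11.8%, against 27.0% of all genes), with Hp higher and Cxcr2, a neutrophil chemokine receptor, lower (-2.02) among 17. Of these 17, 3 lay above the median level of all genes. Most were thus dim, and the low share does not show that the lines were alike in them.

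Monocyte and macrophage markers went both ways, 6 higher and 11 lower of 30 (56.7% called, against 27.0% of all genes). Their median of 0.06 was -0.05 without array B of B140H and 0.03 without array C of B117H. Lyz1 and Lyz2, lysozyme genes so alike that their probes may share transcripts, read 35.6 to 51.9 and 103 to 161 units in B140H, against 1555 to 1719 and 1200 to 1344 units in B117H. Their differences were -5.26 for Lyz1 and -3.35 for Lyz2. Ccr2, the chemokine receptor of inflammatory monocytes, read 430, 142 and 218 units in B140H and 8630, 6671 and 6907 units in B117H (-4.95). Cd14, the lipopolysaccharide co-receptor, differed by -3.37 and Adgre1, the macrophage antigen F4/80, by -2.66. F13a1, described above, was the largest of the higher ones. The difference of differences was called positive for 10 of the 30 and negative for 1.

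Growth factor receptors were called lower in B140H for 13 of 28 members and higher for 5 (64.3% called, against 27.0% of all genes). Their median was -0.38. At least 2-fold differences counted 8 lower and 3 higher members, and the receptors named here are lower ones. Csf2ra, the alpha chain of the GM-CSF receptor, read 42.8, 39.5 and 33.5 units in B140H and 1407, 1172 and 1408 units in B117H, a difference of -5.07 (adjusted p = 2.14e-11). Kit, the stem cell factor receptor, read 62.5, 49.0 and 30.1 units in B140H and 1231, 1673 and 1488 units in B117H (-4.97, adjusted p = 5.69e-09), with a gap of -4.96 in the parents. Il1r1, an interleukin-1 receptor, differed by -3.37. Kit is also a mast cell marker: of 15 mast cell, basophil and eosinophil markers 4 were called lower and 0 higher in limma (0 higher also at an unadjusted p under 0.05), the other 3 being Siglecf (-2.91), Gata2 (-1.59) and Mcpt8 (-1.55). This share of 26.7% called was close to the 27.0% of all genes. The list summed to 1694 to 1833 units in B140H and to 4495 to 5329 units in B117H.

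Among haematopoietic transcription factors 6 of 34 were called higher and 13 lower (55.9% called, against 27.0% of all genes), with a median of -0.36. Erg was the largest, at 65.4, 55.8 and 39.7 units in B140H and 3449, 3229 and 3037 units in B117H. Cebpb, a factor of monocytes and of emergency granulopoiesis, was higher, at 2965, 2352 and 3043 units in B140H and 288, 188 and 346 units in B117H, a difference of 3.38 (adjusted p = 3.03e-08). Irf8, which drives monocyte and dendritic cell fate, read 9399, 7407 and 8476 units in B140H and 2816, 2689 and 2678 units in B117H, a difference of 1.62. The parents had no called gap in Irf8, with 5155, 4201 and 5599 units in B140P and 5546, 5319 and 5785 units in B117P, so B140H was above and B117H below them. Egr1 (1.54) and Klf4 (1.47), immediate early and zinc finger factors of monocytes, were higher, and Nfil3 (-1.65), a leucine zipper factor of innate lymphoid cells, was lower.

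Hox genes and leukaemia insertion targets, genes near which retroviruses insert in this kind of leukaemia, were called higher for 4 and lower for 6 of 29. This was 34.5% called, against 27.0% of all genes. Evi2a, a membrane protein named for an ecotropic integration site, read 566, 423 and 527 units in B140H and 6098, 6935 and 8536 units in B117H (-3.82, adjusted p = 1.11e-09). Bcl11a, a zinc finger repressor, differed by -2.77 and Hoxa9, a homeobox gene of progenitor self-renewal, by -1.77. Its cofactor genes Meis1 and Pbx3 were higher, by 1.49 and 1.31, and Hoxa7 by 1.04. Integrins and adhesion molecules were called higher for 7 and lower for 9 of 23 (69.6% called, against 27.0% of all genes). Among them were Itgam, CD11b of mature myeloid cells, at -1.93, Cd9, a tetraspanin, at -2.27, Selplg, the selectin ligand PSGL-1, at -1.95, and Itga6, a laminin receptor, at 1.32.

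B lymphoid genes were called more often higher than lower in B140H, 10 against 5 of 24 (62.5% called, against 27.0% of all genes). Their median of 0.15 was 0.03 without array B of B140H, 0.23 without its array A, and 0.22 and 0.09 without arrays B and C of B117H, while 10 were called higher and 5 lower in each case. Cd79b read 2425, 2589 and 3350 units in B140H and 44.6, 68.0 and 79.8 units in B117H. Cd72, a B cell co-receptor, read 4612, 5028 and 6219 units in B140H and 184, 239 and 243 units in B117H, a difference of 4.57 (adjusted p = 4.83e-10). Rag1, a recombinase of antigen receptor genes, differed by 4.48 and Ebf1, the early B cell factor, by 4.28, with 788, 787 and 950 units in B140H and 39.1, 36.8 and 52.4 units in B117H. Cd79a differed by 2.98 and Cd22, an inhibitory co-receptor, by 2.88. Dntt and Vpreb1, described above, were among the 5 called lower, and 4 of the 5 were lower by at least 2-fold. Pax5, which commits cells to the B lineage, was not called, at 206, 292 and 148 units in B140H and 200, 170 and 149 units in B117H. The parents had 13 higher and 1 lower call with a median of 0.75, and the difference of differences was positive for 3 and negative for 7 of the 24, the 7 including Dntt and Vpreb1.

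Interferon response genes were lower in B140H for 18 of 38 members and higher for 3, with a median of -0.32. This was 55.3% called, against 27.0% of all genes. Gbp3, a guanylate-binding protein of cell-autonomous defence, read 45.1, 56.4 and 31.9 units in B140H and 1692, 2636 and 2214 units in B117H, a difference of -5.60 (adjusted p = 1.56e-09). Oas1a, an oligoadenylate synthetase, read 229, 271 and 277 units in B140H and 1440, 1352 and 1574 units in B117H (-2.49). Ifi27l2a (-2.06), Trim30a (-1.89), Xaf1 (-1.85) and the deubiquitinase gene Usp18 (-1.38) followed. Between the parents 25 members were called lower and 1 higher, with a median of -0.77. In limma the difference of differences was called positive for 12 members and negative for 0 (2 at an unadjusted p under 0.05). Usp18 was among the 12, with 83.2, 71.8 and 58.6 units in B140H, 175, 137 and 265 units in B117H, 52.1, 53.3 and 52.5 units in B140P and 501, 415 and 455 units in B117P.

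Inflammatory cytokine genes were called for 7 of 25 members, 4 higher and 3 lower, a share of 28.0% that was close to the 27.0% of all genes. The largest was Il6, interleukin-6, at 23.6, 19.6 and 20.4 units in B140H and 491, 374 and 403 units in B117H (-4.25, adjusted p = 2.38e-10), followed by Ptgs2, the inducible cyclooxygenase, at -2.60. Tnfaip3, a feedback inhibitor, differed by -0.82, Relb by 0.82, Rel by 0.52 and Tnf by 0.49. Without array C of B117H the higher count was 2. Toll-like, Fc and lectin receptors were called higher for 9 and lower for 7 of 27 (59.3% called, against 27.0% of all genes). At least 2-fold differences counted 1 higher and 3 lower members. The 3 lower ones were Clec7a, the beta-glucan receptor, at -2.43, Tlr7, a sensor of RNA, at -1.68, and Fcgr2b, the inhibitory Fc receptor, at -1.50. The higher count was 5 without array B of B117H.

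Cholesterol and fatty acid synthesis genes were mostly lower in B140H. Of 33 measured genes 26 were called lower and 1 higher (81.8% called, against 27.0% of all genes), with a median of -0.76. Elovl6, which elongates palmitate, read 82.9, 91.8 and 67.8 units in B140H and 2366, 2585 and 2051 units in B117H, a difference of -4.84 (adjusted p = 5.34e-11). Lss, lanosterol synthase, read 165, 160 and 101 units in B140H and 868, 980 and 999 units in B117H (-2.77, adjusted p = 1.88e-07). Hsd17b7, a sterol ketoreductase, differed by -2.28, Acss2, which makes acetyl-CoA from acetate, by -2.04 and Msmo1, a sterol demethylase, by -1.64. Abca1, the cholesterol efflux pump, differed by -2.31 (SE 0.41), and Abcg1, another efflux pump and the 1 member called higher, by 1.30. The list thus also counts efflux genes. Of the 3 Abca1 probe sets the other 2 were not called (0.03 and 0.21). Fasn, fatty acid synthase, read 4631, 4803 and 3594 units in B140H and 4446, 4655 and 4202 units in B117H, overlapping and not called. Abcg1 and Fasn are named after their values were seen.

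The list summed to 75235 to 83790 units in B140H and to 129012 to 138855 units in B117H. Between the parents 13 members were called lower and 1 higher with a median of -0.31, and the difference of differences was negative for 6 and positive for 1. Acss2 had no parental gap, with 260, 272 and 384 units in B140H and 1218, 981 and 1573 units in B117H, but 180, 183 and 267 units in B140P and 120, 210 and 187 units in B117P. Elovl6 was lower in B140H than in its parent, which had 470, 400 and 452 units (-2.44 in B140H minus B140P).

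Amino acid metabolism and stress response genes include many targets of the transcription factor ATF4. They were called lower for 11 of 30 members and higher for 2 (43.3% called, against 27.0% of all genes). Their median of -0.24 was -0.13 without array C of B117H and -0.15 without array C of B140H. Asns, asparagine synthetase, read 105, 135 and 121 units in B140H and 2549, 2001 and 3963 units in B117H, a difference of -4.50 (adjusted p = 8.80e-09). Psat1, of serine synthesis, read 658, 773 and 651 units in B140H and 4670, 3656 and 3937 units in B117H (-2.55). Slc1a4, a carrier of neutral amino acids, differed by -1.64, Trib3, a stress-induced pseudokinase, by -1.60, Chac1, which degrades glutathione, by -1.34 and Herpud1, of the unfolded protein response, by -1.24. The parents had 7 lower and 3 higher calls with a median of -0.21.

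ATF4 and C/EBP factors bind together at a composite element whose core is written TGATGNAA here, and SREBP factors bind sterol elements, written TCACNCCAC here. Both were looked for on either strand in windows of 250 bases before to 50 after the start of genes, taken from RefSeq on GRCm38.p6. TGATGNAA was found in 1219 of 27025 genes with a window (4.51%) and in 8 of 27 amino acid list members with one (29.6%), among them 5 of the 13 called members. The other 3 members with it were not called, Slc7a11, a cystine carrier with 2 matches (-0.0021), Got1, an aspartate aminotransferase (-0.25), and Atf3, a stress-induced factor (-0.31). Many members were listed as ATF4 targets, so the 29.6% depends on that choice and says nothing about the gap between the lines. TCACNCCAC was found in 388 of 27025 genes (1.44%) and in 1 of 25 members of the sterol list, Hmgcs1, which makes the substrate of HMG-CoA reductase. Hmgcs1 read 6216, 6050 and 5581 units in B140H and 12655, 14438 and 14811 units in B117H, a difference of -1.23. The windows of the 5 called genes and of Hmgcs1 are shown so that the elements can be seen beside the gaps; capitals mark the match on the gene's strand, or its reverse complement where it lies on the other strand.
Asns: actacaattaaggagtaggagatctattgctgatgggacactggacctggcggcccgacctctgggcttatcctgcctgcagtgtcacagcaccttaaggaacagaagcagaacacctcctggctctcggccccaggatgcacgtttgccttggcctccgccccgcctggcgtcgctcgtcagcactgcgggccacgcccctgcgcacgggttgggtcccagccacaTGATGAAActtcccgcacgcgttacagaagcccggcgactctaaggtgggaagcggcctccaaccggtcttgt
Chac1: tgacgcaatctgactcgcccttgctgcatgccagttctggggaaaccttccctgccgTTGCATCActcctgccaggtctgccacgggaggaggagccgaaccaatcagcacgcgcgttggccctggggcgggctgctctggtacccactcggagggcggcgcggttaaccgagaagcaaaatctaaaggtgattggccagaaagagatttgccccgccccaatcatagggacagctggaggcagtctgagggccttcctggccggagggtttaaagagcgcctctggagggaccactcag
Herpud1: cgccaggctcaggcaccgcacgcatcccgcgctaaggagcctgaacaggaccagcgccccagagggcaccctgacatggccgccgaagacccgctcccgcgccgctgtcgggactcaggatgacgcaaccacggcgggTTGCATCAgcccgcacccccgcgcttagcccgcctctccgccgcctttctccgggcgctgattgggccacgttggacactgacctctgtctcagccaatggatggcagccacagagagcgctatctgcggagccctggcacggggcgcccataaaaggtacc
Slc1a4: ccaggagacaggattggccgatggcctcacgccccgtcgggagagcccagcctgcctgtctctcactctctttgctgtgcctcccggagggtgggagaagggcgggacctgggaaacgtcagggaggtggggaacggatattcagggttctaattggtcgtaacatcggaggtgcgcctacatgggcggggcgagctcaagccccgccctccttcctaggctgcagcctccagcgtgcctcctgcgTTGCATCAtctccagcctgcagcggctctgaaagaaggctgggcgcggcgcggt
Trib3: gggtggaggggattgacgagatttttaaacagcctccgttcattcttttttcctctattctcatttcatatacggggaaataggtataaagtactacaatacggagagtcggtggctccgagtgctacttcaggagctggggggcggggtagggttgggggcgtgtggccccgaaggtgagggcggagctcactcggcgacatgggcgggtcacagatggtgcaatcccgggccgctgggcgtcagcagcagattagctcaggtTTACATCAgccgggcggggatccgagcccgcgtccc
Hmgcs1: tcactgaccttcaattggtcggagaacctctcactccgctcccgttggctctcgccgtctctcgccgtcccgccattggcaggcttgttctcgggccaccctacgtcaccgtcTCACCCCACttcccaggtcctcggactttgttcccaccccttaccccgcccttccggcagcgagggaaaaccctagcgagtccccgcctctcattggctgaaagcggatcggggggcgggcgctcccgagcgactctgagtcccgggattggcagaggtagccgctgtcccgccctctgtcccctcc
The windows lie at chr6:7693160-7693459 on the minus strand for Asns, chr2:119350992-119351291 on the plus strand for Chac1, chr8:94386179-94386478 on the plus strand for Herpud1, chr11:20332664-20332963 on the minus strand for Slc1a4, chr2:152344011-152344310 on the minus strand for Trib3 and chr13:119690101-119690400 on the plus strand for Hmgcs1, all on GRCm38.p6. The first base of the match lay at -23 in Asns, -193 in Chac1, -112 in Herpud1, -4 in Slc1a4, 14 in Trib3 and -137 in Hmgcs1 relative to the start site, counted as bases before (negative) or after it. A match describes letters in these windows and is not evidence of binding, and its absence from the other windows says nothing about either factor.

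Mitochondrial respiratory chain subunits were called higher for 22 of 88 members and lower for 6 (31.8% called, against 27.0% of all genes), with a median of 0.17. Uqcrfs1, the Rieske iron-sulphur protein of complex III, read 7682, 7863 and 6946 units in B140H and 3353, 3113 and 2970 units in B117H, a difference of 1.25 (adjusted p = 2.01e-07). The assembly factor genes Cox18 and Cox19 differed by 1.18 and 1.02. The lower ones were led by Cox6a2 (-3.37) and Cox7a1 (-1.95), the heart and muscle forms of complex IV subunits. Without array C of B117H the higher count was 14, and the lower count was 2 without its array A, 3 without its array B and 3 without array A of B140H. Ribosomal protein genes were called for 3 of 43 (6.98%, and 1 gene without array C of B117H). Proteasome subunits were called for 8 of 39 (20.5%, against 27.0% of all genes), with Psmb6, a catalytic subunit, at 1976, 2549 and 2297 units in B140H and 5655, 6127 and 5567 units in B117H (-1.35).

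Glutathione and oxidative stress genes were called for 12 of 24 members, 6 in each direction. Mt2, a metallothionein, read 1138, 1390 and 1289 units in B140H and 9373, 8498 and 9710 units in B117H (-2.85, adjusted p = 1.60e-09), and Gstm1, a glutathione transferase, differed by -1.96. Higher were Hmox1 (1.40), the quinone reductase gene Nqo1 (1.18), Gclm of glutathione synthesis (1.13) and the thioredoxin reductase gene Txnrd1 (1.09), of whose 3 probe sets the brightest was the 1 called. Hmox1, haem oxygenase, read 776, 576 and 753 units in B140H and 301, 221 and 272 units in B117H, while B140P had 255, 278 and 282 units and B117P 288, 265 and 232 units, so B140H stood alone. Glycolysis and hypoxia genes were called for 4 of 28 (14.3%, against 27.0% of all genes). Among them Egln3, a prolyl hydroxylase that is itself induced by hypoxia, differed by -4.66.

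In the p53 pathway list 12 of 27 members were called higher and 6 lower in B140H (66.7% called, against 27.0% of all genes). Their median of 0.15 was 0.08 without array B of B140H. Zmat3, a p53 target that binds RNA, read 2014, 2920 and 3344 units in B140H and 158, 166 and 126 units in B117H, a difference of 4.17 (adjusted p = 1.78e-08). Cdkn1a, the cell cycle inhibitor p21, read 7975, 7745 and 7960 units in B140H and 1155, 825 and 1376 units in B117H, a difference of 2.85 (adjusted p = 4.53e-08). Ccng1, cyclin G1, differed by 1.18, and Gadd45a (-1.65), Pmaip1, the death inducer Noxa (-1.21), and Gadd45b (-1.11) were lower. Both Zmat3 and Cdkn1a were higher in B140P than in B117P too, by 5.35 and 2.06. The higher count was 7 without array A of B117H.

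Apoptosis regulators were called higher for 5 and lower for 9 of 28. Ripk3, the kinase that starts necroptosis, read 511, 487 and 521 units in B140H and 1916, 1897 and 1875 units in B117H (-1.90, adjusted p = 5.59e-09), against 1245, 1388 and 1158 units in B140P and 1569, 1601 and 1463 units in B117P, with a called change of -1.31 in B140H minus B140P. Bcl2, the survival factor, read 2502, 2449 and 1867 units in B140H and 4822, 4719 and 4691 units in B117H (-1.07). Its parental gap was wider, -2.09, with means of 1100 units in B140P and 4692 units in B117P. B140H was thus above its own parent, and the difference of differences was 1.02 (adjusted p in limma = 0.00195). Casp4, an inflammatory caspase, differed by -1.72, while the BH3-only genes Bmf (1.46) and Bbc3 (0.84) were higher. The higher count was 2 without array B of B117H, 3 without its array C and 3 without array B of B140H.

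DNA repair genes were called higher for 12 and lower for 12 of 65, and DNA replication genes for 9 and 8 of 50. These were 36.9% and 34.0% called, against 27.0% of all genes. Brca2, of homologous recombination, read 3699, 3733 and 3874 units in B140H and 1030, 1090 and 1040 units in B117H, a difference of 1.84 (adjusted p = 5.59e-08). The mismatch repair genes Pms2 and Msh6 differed by 1.74 and 1.24 and Pms1 by -0.70, and the end-joining gene Xrcc4 and the break sensor gene Nbn by -0.91 and -0.80. Each of Brca2, Pms2 and Msh6 was higher in B140P than in B117P as well, by 1.69, 1.40 and 0.92. In the cell cycle list 8 of 36 were higher and 4 lower (33.3% called), with Ccne1, cyclin E1, at 1.44. Ccne1 was not called between the parents (-0.25), and its change from the parent was 0.73 in B140H and -0.96 in B117H.

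Chromatin regulators were called higher for 9 and lower for 8 of 48 (35.4% called, against 27.0% of all genes), while between the parents 18 were higher and 7 lower. Nsd1, a histone H3 lysine 36 methyltransferase, read 577, 580 and 662 units in B140H and 37.7, 31.2 and 44.5 units in B117H, a difference of 3.98 (adjusted p = 4.87e-10), with 489, 602 and 703 units in B140P and 309, 329 and 307 units in B117P. Of its 3 other probe sets, 2 were called higher by 1.19 and 0.81 and the other was not called (0.07). Hmga2, an architectural DNA-binding protein, read 1369, 1402 and 1327 units in B140H and 99.4, 100 and 124 units in B117H (3.66). Pcgf6, a Polycomb ring finger protein, differed by 1.98 against 4.76 in the parents, and Sfmbt2, another Polycomb protein, by 1.41 against 4.76.

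S100 proteins and annexins were called lower for 6 and higher for 2 of 15 (53.3% called, against 27.0% of all genes). Anxa3, an annexin of neutrophils, read 40.2, 99.4 and 80.1 units in B140H and 1398, 1604 and 1767 units in B117H (-4.51). Anxa5, which binds exposed phosphatidylserine, differed by -2.83, and S100a6, calcyclin, by 1.37. Lysosomal proteases and inhibitors were called higher for 7 and lower for 6 of 20 (65.0% called, against 27.0% of all genes), with cathepsins in both directions. Ctsl, cathepsin L, read 85.9, 110 and 116 units in B140H and 2092, 1828 and 2295 units in B117H (-4.31). Ctsb, cathepsin B, read 4228, 3721 and 3685 units in B140H and 1360, 1208 and 1154 units in B117H (1.64). Lgmn, legumain, differed by -3.25.

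**Figure D4:**
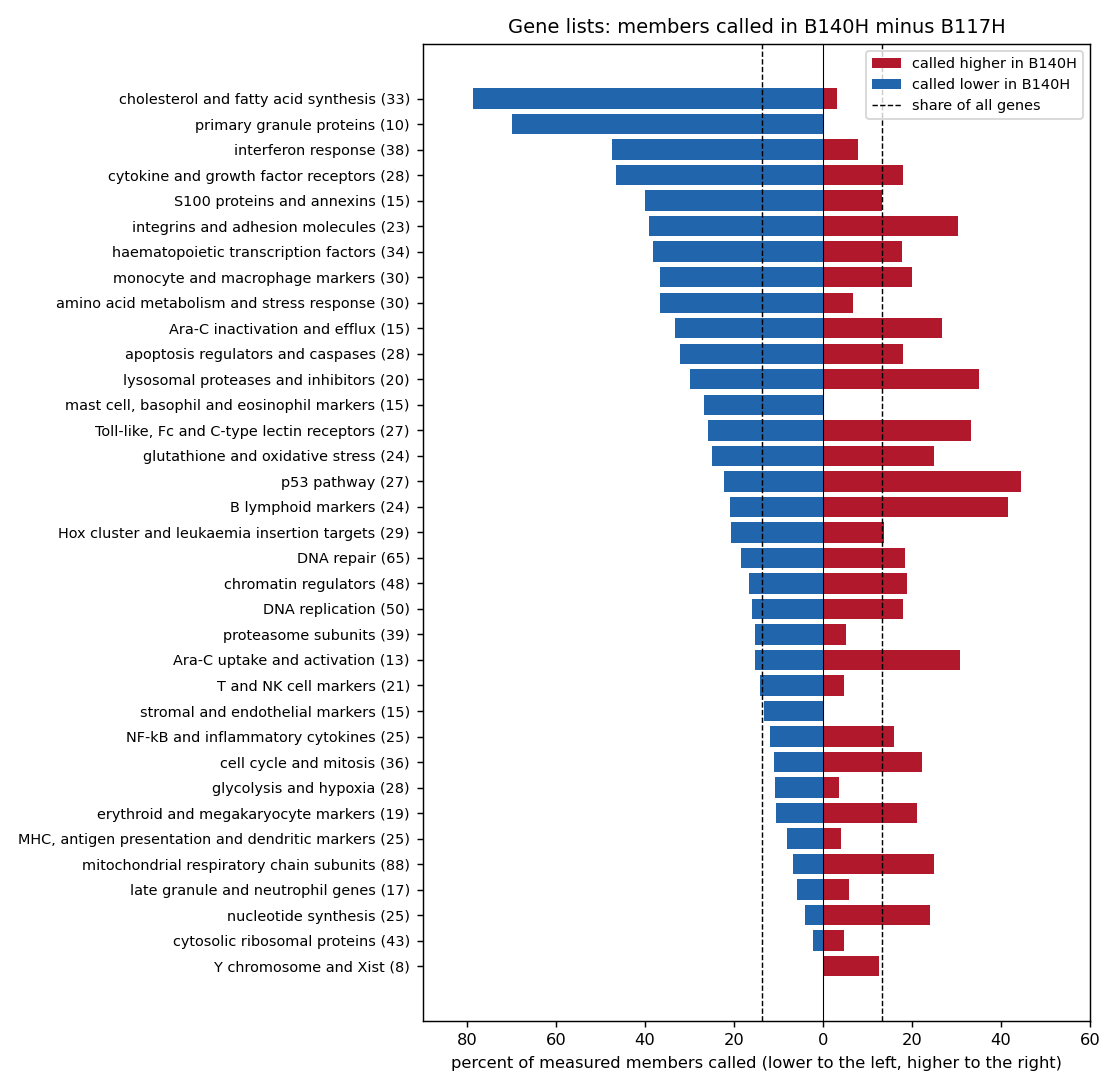
For each of the 35 gene lists, with the number of measured members in brackets, bars give the percentage of members called higher in B140H (red, to the right) and lower in B140H (blue, to the left), and dashed lines mark the 13.3% and 13.7% of all genes. Cholesterol and fatty acid synthesis has the longest bar to the left, 26 of 33 members, and the p53 pathway the longest to the right, 12 of 27.

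Called genes were unevenly spread over the chromosomes. On chromosome 1, 322 of 1057 genes were called lower and 46 higher, and on chromosome 4, 329 of 1087 were lower and 54 higher. The parents had the same lean, 255 lower and 41 higher on chromosome 1 and 281 lower and 36 higher on chromosome 4 in B140P minus B117P. On chromosome 5 the lean was to the other side, 306 higher and 79 lower of 1122, against 161 higher and 98 lower in the parents, and chromosome 13 had 171 higher and 66 lower of 702, against 73 and 70 in the parents. Chromosome 12 had turned: 170 of 622 genes were lower and 30 higher between the resistant lines, while 46 were lower and 131 higher between the parents. On chromosome 16, 74 were higher and 60 lower of 593 between the resistant lines, and 23 higher and 150 lower between the parents. With any 1 array or any 1 letter left out, chromosome 1 had 211 to 330 lower and 24 to 58 higher calls, and chromosome 5 had 230 to 310 higher and 57 to 82 lower ones. All genes of an array come from the same RNA, so neighbouring calls are not independent of each other.

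Some runs of neighbouring genes, chosen here after their values were seen, were called mostly in one direction. In blocks of 100 measured genes in order along a chromosome, the block from Tmem184a to Katnal1 on chromosome 5 had 59 genes called higher and 2 lower, with a median of 0.59, and its neighbour from Bcl7b to Mafk had 53 and 3, against 43 and 1 and 16 and 10 in the parents. On chromosome 13 the block from Snrnp48 to Cplx2 had 41 higher and 2 lower genes, against 8 and 10 in the parents. On chromosome 4 the block from Grhpr to Cdc26 had 5 higher and 47 lower genes with a median of -0.25, against 1 and 35 in the parents, and on chromosome 8 the block from Rfx1 to Herpud1 had 1 and 38, against 2 and 32. On chromosome 12 the block from Trappc12 to Mipol1 had 4 higher and 32 lower genes between the resistant lines, against 15 and 8 between the parents. The number of chromosome copies in these lines was not measured, and its part in these values was not tested.

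The largest single gaps on the 3 chromosomes with the highest share of calls were far beyond these medians. On chromosome 1 they were Cd34, Il18r1, Slc11a1 and Col19a1, a collagen, at -5.02. Chromosome 4 had Gem, Ptgr1, Zmpste24 and Dmrtb1, and chromosome 5 had Sri, Zfp518b, Kit and Dck.

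**Figure D5:**
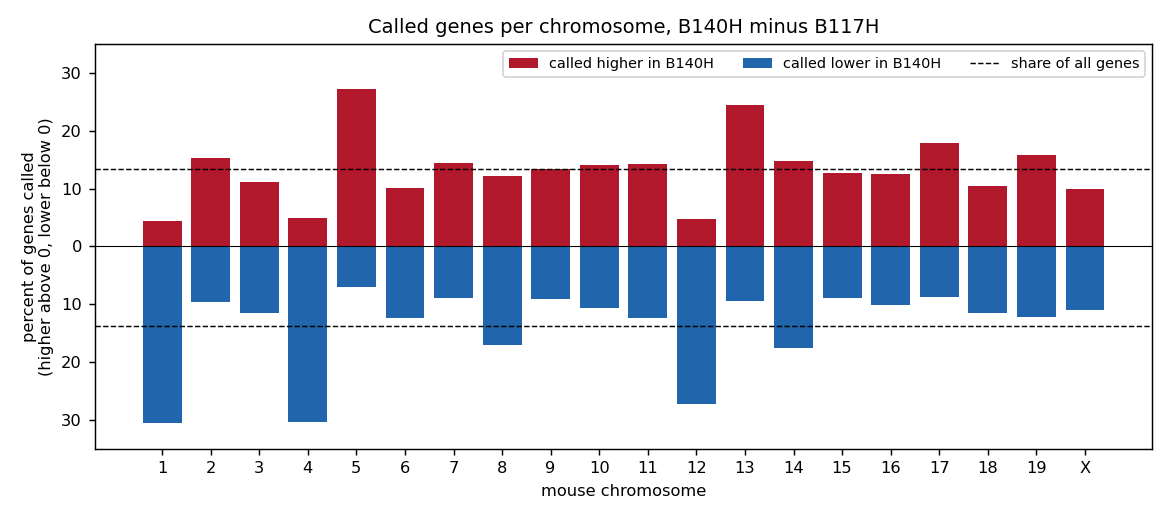
Bars give the percentage of measured genes on each mouse chromosome that were called higher in B140H (red, above 0) and lower in B140H (blue, below 0), with dashed lines at the 13.3% and 13.7% of all genes. Chromosomes 1, 4 and 12 lean to the lower side and chromosomes 5 and 13 to the higher side.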

How the data were processed

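Total RNA of B140H, B117H, B140P and B117P was hybridised to 3 one-colour expression arrays per line. Extraction was by RNeasy Midi column, and amplified RNA carried biotin, per the labels' protocols. The deposited intensity values are probe-set summaries on a linear scale, made with RMA per the submitters' processing notes. For the RMA version, its settings and the genome build, the entry is: not given in the sources used here. RMA takes medians across arrays and compresses differences among dim probe sets.

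The deposited intensities were transformed as log2(value + 1). Of 45101 probe sets, 64 controls were left out and 45037 tested, of which 34945 had 1 gene symbol in the platform annotation, 932 several and 9160 none. Where several probe sets named a gene by itself (9010 genes), the brightest over 12 arrays stood for it, and 18193 genes were measured. The reference gene table matched 18032 of them and was used for chromosomes and gene order only. limma 3.58.1 in R 4.3.3 (lmFit, contrasts.fit, eBayes, two-sided) was fitted with 1 coefficient per line on 12 arrays, with 8 residual and 4.65 prior degrees of freedom. The median residual SD was 0.154 log2 units. P-values were Benjamini-Hochberg adjusted over the 45037 probe sets. The fit was tested on simulated data with known differences. The number of arrays limits the precision.

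Lists are described by counts and medians, with no set test. The text names the 15 leading genes per direction, all members of both Ara-C lists, up to 6 called members of each other list, the genes leading the difference of differences or called with opposite signs, and the leading genes of 3 chromosomes. Predicted and Riken genes were left out. Further probe sets existed but were not called for Bmf, Csf2ra, Ctsl, Hpgd, Il1r1, Ptgs2, Serpinb1a, Sfmbt2, Tnfaip3, Xaf1 and Xrcc4. Other named genes, such as Crem, Bcl2 and S100a10, had some further probe sets called and some not. Members, lists and rules were chosen with earlier results of these data known. Genes named as markers or as uncalled members beyond this rule were chosen after their values were seen.

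Deviations from the line mean correlated, across probe sets, at 0.455, 0.349 and 0.532 between B140H and B117H arrays of the letters A, B and C, and at 0.499, 0.131 and 0.414 between B140P and B117P. Unlike letters correlated at -0.445 to -0.0136 between B140H and B117H. Deviations from a mean cancel out within a line, so unlike letters tend to be negative once like letters correlate positively. These negative values add no separate evidence, and the pairing of the resistant arrays by letter rests on the like letters. In the parents the pairing was unclear for B and C. Array B of B140P correlated at 0.116 with array C of B117P, and array C of B140P at 0.241 with array B of B117P. The fit reported has no term for them, and the block for the letter was tried as an alternative.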

Additional observations from a re-analysis of the deposited data

Results flagged for a closer look

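The gaps below differed between the resistant and the parental pair in limma, tested as B140H minus B117H less B140P minus B117P on the log2 scale. They share arrays with the gap between the resistant lines and were picked for size, so their adjusted p-values support no ranking among them.

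Among the 30 leading genes the gap had become more positive than in the parents for F13a1 by 4.61, Uty by 3.48, Cd79b by 1.34, Rgs7bp by 1.27 and Zfp518b by 0.65. For Pou4f1 the difference was -1.04. On the lower side it was -3.02 for Gem, -2.92 for Itgax, -2.67 for Il18r1, -1.82 for Mpo and -0.63 for Fgf13. Adjusted p-values ran up to 0.0442, that of Fgf13.

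Among genes that were also called between the resistant lines, and beside F13a1 and Uty, the largest positive values were 5.95 for Hpse, 5.15 for Hmgn3, 4.92 for Dck, 4.70 for Hp, 3.996 for Igsf6 and 3.59 for Hpgd. The largest negative values among the same genes were -5.23 for S100a10, -4.69 for Sgpp1, -4.17 for Vpreb1, -4.11 for Camk1d, -3.99 for F2r, -3.91 for Dntt, -3.58 for Gnpda2 and -3.57 for Crem. Camk1d, a calcium-dependent kinase, read 148, 153 and 163 units in B140H and 370, 419 and 411 units in B117H, while B140P had 386, 436 and 448 units and B117P 47.3, 83.5 and 61.6 units. Gnpda2, a glucosamine phosphate deaminase, read 76.8, 51.2 and 53.5 units in B140H and 595, 579 and 628 units in B117H, with 438 to 520 units in B140P and 372 to 403 units in B117P.

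Genes with called gaps of opposite sign included Ttc39c (3.02), Gcsam, a germinal centre signalling protein (2.39), and Slc35d3, a nucleotide sugar transporter homologue (-2.57). Ttc39c read 446, 447 and 478 units in B140H and 112, 102 and 104 units in B117H, while B140P had 98.9, 118 and 106 units and B117P 210, 216 and 189 units.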

How the results depend on the processing

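The 30 leading genes were called with the same sign in all 840 values under the 28 settings tried. They were picked for the largest called gaps on these same arrays, so this outcome was close to fixed in advance. Outside the 2 Ara-C lists, the other named genes were also picked among called ones. Of 6393 values over 229 named genes, 6145 kept their sign and their side of the threshold, 240 were no longer called, 6 became called and 2 turned round, neither of them called: Samhd1 was -0.0293 when the probe sets of each gene were averaged and Ppat -0.18 when probe sets of the types _s_at and _x_at were left out.

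The count of genes called between the resistant lines was 4911. It was 5846 with the replicate letter as a block, where all 4911 calls stayed with the same sign, 1290 when tested against a 1.5-fold difference and 3130 without all C arrays. Leaving out 1 array gave 4108 to 4997. The parental count, 4333, was 5139 with the block, 1123 against a 1.5-fold difference, 2698 without all C arrays and 3585 to 4608 without 1 array. The difference of differences, 1896, was 2739 with the block, 1006 at an adjusted p under 0.01, 248 against a 1.5-fold difference, 904, 672 and 575 without all A, B or C arrays, and 1448 to 1879 without 1 array. The block ended no call among these 229 genes and added Slc29a1. Averaging a gene's probe sets turned 3 calls. Why these counts moved was not tested beyond the stricter limits and smaller samples. Gene list counts without array B of B140H were an alternative chosen after the data were seen. They gave 1 higher and 25 lower sterol genes and 4 and 16 interferon genes. Dim probe sets limit the size of gaps, since no detection calls were given.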

Other observations

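Some wide parental gaps were not called between the resistant lines. Of the 4333 genes called in B140P minus B117P, 1525 were not called in B140H minus B117H, and for 547 of these the difference of differences was called. With the letters A to C as a block, 221 of the 1525 and 66 of the 547 were called between the resistant lines. The examples here were chosen after their values were seen. Glul, glutamine synthetase, read 1071, 774 and 1129 units in B140H and 644, 762 and 711 units in B117H, a difference of 0.47 (adjusted p in limma = 0.0601, and 0.045 with the block), against a parental gap of 5.59 in which B117P was at 19.2, 13.4 and 16.7 units. Depdc1a, a regulator of mitosis, differed by 0.26 between the resistant lines (adjusted p = 0.378, and 0.206 with the block) and by 4.78 between the parents, and B117P was again low, at 13.2 to 15.7 units. Xrcc5, the Ku80 subunit of end joining, differed by -0.43 (adjusted p = 0.0578, and 0.0349 with the block) and by 2.94. Gfi1, a transcriptional repressor in granulocyte precursors, differed by -0.24 and by -2.62, and Serpinb8, a protease inhibitor, by -0.33 and by 3.55. In Glul and Depdc1a it was the B117 lineage that had moved, by 5.35 and 4.89 in B117H minus B117P.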
